A study of Mus musculus with 6 samples.

Results

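Germinal centre (GC) B cells called as in S phase, when DNA is copied, were compared between those called light zone (LZ) and those called dark zone (DZ). The cells were those with the deposited cell cycle call S and the deposited zone call LZ or DZ, 10657 of the 38651 cells of the series. Of them 3384 were called LZ and 7273 DZ, and a further 268 S phase cells had an unknown zone. All cells were GC B cells sorted from the spleens of mice given NP-haptenated antigen with alum, and were sequenced in 6 droplet libraries from the 5-prime end. Day7 is a pair of libraries of B220+ CD38- GL7hi cells from wild-type mice, 7 days after immunisation, and Day14 a pair of B220+ CD95hi GL7hi IgD- cells from wild-type mice at 14 days. The chimaera control and chimaera KO are 1 library each, at 14 days and with the Day14 gate, from irradiated mice that had received wild-type bone marrow. The control host was Il4ra+/+ and the KO host Ccl19Cre/+ Il4raf/f, so that the B cells came from wild-type marrow in both and the deleted allele was in the Ccl19-expressing host stroma. How many host B cells survived irradiation was not measured here. The labels give no ages, and they do not say that libraries came from separate animals, so p-values measure the spread between these libraries.

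In the germinal centre, B cells divide and mutate their antibody genes in the dark zone, and are tested for antigen and helped by T cells in the light zone. Help through CD40 and antigen signals induces MYC there, and selected cells start a cell cycle in the light zone and complete it in the dark zone. S phase itself begins with the firing of licensed origins, runs through bulk DNA and histone synthesis, and passes into G2, when the genes of mitosis accumulate.

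Zone and phase calls accompany the deposited tables, and how they were made is not stated. The cells were sorted on a whole-GC gate, and the labels name no measure of zone or phase other than the RNA compared here. The genes behind the calls are therefore part of the difference by construction, and which genes they were is not given. Of 12 S phase markers, 12 were higher in S than in G1 cells in both zones of all 6 libraries. Of 5 light zone markers 5 were higher, and of 5 dark zone markers 5 were lower, in LZ than in DZ S phase cells in all 6 libraries. Per library there were 78 to 918 LZ and 179 to 2071 DZ cells, and the sums held 1659312 to 13843440 UMIs (deposited molecule counts). The median cell held 18286.5 to 22072 UMIs in the Day7 sums, 3083 to 4350 in the Day14 sums and 7844 to 9200 in the chimaera sums, with the LZ median below the DZ median in all 6 libraries. Pairs of libraries shared 0 to 10 cell barcodes among their S phase cells. A sum over cells cannot tell a gene that is higher in every cell from one that is higher in a few.

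Fewer of the cells called LZ than of those called DZ were called S. The share in S ranged from 17.2% to 25.9% of LZ cells (mean 22.3, SD 2.97, n = 6) and from 29.5% to 33.8% of DZ cells (mean 32.02, SD 1.57). LZ was below DZ in 6 of 6 libraries, with differences from -14.9 to -3.63 percentage points, and the 2 zones did not overlap. The mean difference was -9.69 percentage points (SD 3.65, exact two-sided sign-flip permutation p = 0.03125, the smallest that 6 pairs allow). Among cells at or above the median UMI count of their library the difference was -2.47 points (exact permutation p = 0.4375). UMI count moved with both phase and zone, and its part in the difference was not tested.

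Gene by gene, UMI counts were summed per library and zone and compared within libraries (edgeR, Benjamini-Hochberg adjusted p under 0.05). Of 9703 tested genes, 1836 (18.9%) were higher and 1918 (19.8%) lower in LZ S phase cells, 3754 in all (38.7%). Each count of a gene list given below for this comparison is to be read beside these shares. Most of these differences were small, and 2656 of the called genes stood under a log2 difference of 0.5. At a log2 difference of at least 1, 118 genes were higher and 136 lower, and 51 of those 136 were histone genes of the replication-dependent clusters. Of the called genes, 1267 were higher and 1548 lower in 6 of 6 libraries. Higher calls made up 48.9% of all calls, 60.4% with library totals in place of TMM scaling and 59.0% with cells weighted alike, settings that moved the median of all genes by less than 0.1 log2.

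**Figure D1:**
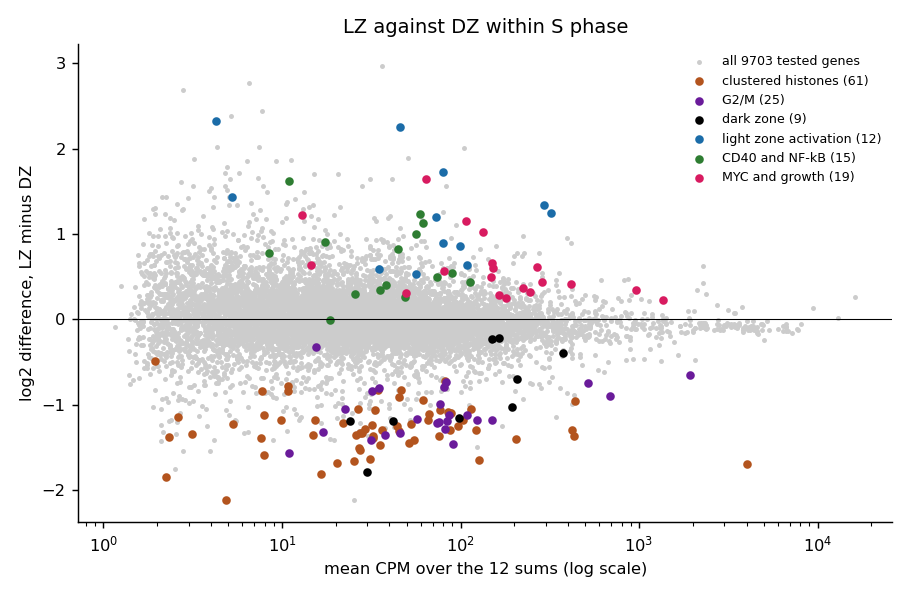
Log2 difference between LZ and DZ S phase cells (vertical axis) against mean CPM over the 12 sums (horizontal axis, log scale), 1 grey point per tested gene, with 6 gene lists coloured and their tested members counted in the legend. The clustered histones and G2/M genes lie below 0, from log2 -2.12 to -0.33, and the 12 light zone genes above it, from 0.53 to 2.32.

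Among well-counted genes the largest difference belonged to a G1 cyclin. Ccnd2 (chromosome 6, 127125162 to 127152193 of GRCm38), which encodes cyclin D2 and drives entry into the cell cycle, stood in LZ cells at 27.5 and 103 CPM in the Day7 libraries, 71.5 and 79.6 CPM in the Day14 libraries, 65.8 CPM in the chimaera control and 39.1 CPM in the chimaera KO. In DZ cells it stood at 8.20 and 10.3 CPM in the Day7 libraries, 7.05 and 10.3 CPM in the Day14 libraries, 12.1 CPM in the chimaera control and 3.22 CPM in the chimaera KO. The lowest LZ library was above the highest DZ library (log2 2.97, SE 0.12, adjusted p = 4.75e-15, higher in 6 of 6 libraries). Ccnd3, the cyclin D that dark zone cells use for inertial division, went the other way, with 207 to 491 CPM in the LZ sums (median 339.8) and 269.7 to 598 CPM in the DZ sums (median 456). The zones overlapped across libraries, yet LZ was the lower in 6 of 6 (log2 -0.39, SE 0.04, adjusted p = 3.30e-08).

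Myc (chromosome 15, 61985391 to 61990374), the growth regulator induced by T cell help, ranged over 52.6 to 166 CPM in the LZ sums (median 88.2) and 17.5 to 48.3 CPM in the DZ sums (median 28.95), with no overlap (log2 1.65, SE 0.07, adjusted p = 4.75e-15). Mxd3 (chromosome 13, 55325168 to 55329823), a MYC-network repressor that pairs with MAX, was the named gene with the largest difference in the other direction. It ranged over 6.21 to 12.8 CPM in the LZ sums (median 8.53) and 34.8 to 49.1 CPM in the DZ sums (median 41.5), again with no overlap (log2 -2.12, SE 0.09, adjusted p = 6.97e-15). In S phase cells of the same libraries, the LZ sums therefore held more Myc and less Mxd3 than the DZ sums, in 6 of 6 libraries for both.

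**Figure D2:**
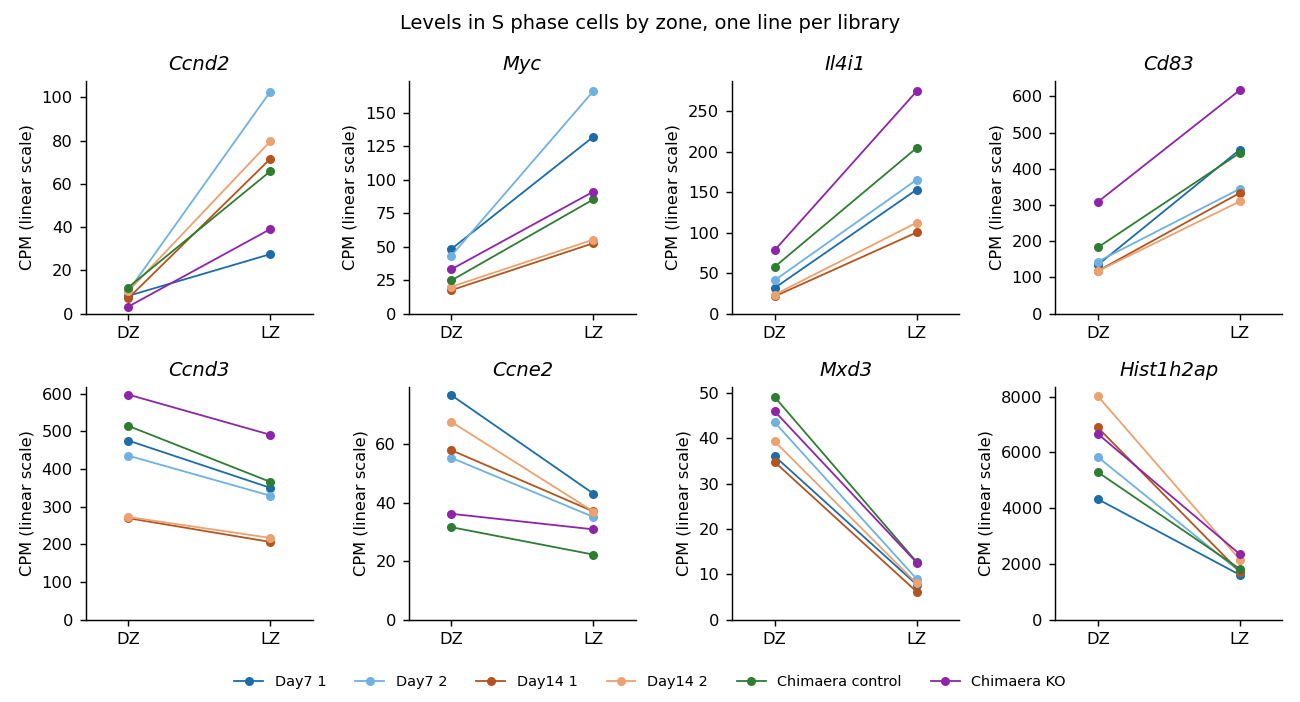
CPM (linear scale, from 0) of 8 genes in the DZ and LZ sums of S phase cells, with 1 line per library. All 6 lines rise toward LZ for Ccnd2, Myc, Il4i1 and Cd83, and all 6 fall for Ccnd3, Ccne2, Mxd3 and Hist1h2ap.

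The other genes that led the LZ side had varied functions. Il4i1, which encodes an IL-4-induced oxidase of amino acids, ranged over 100.2 to 274 CPM in the LZ sums (median 159) and 21.3 to 78.2 CPM in the DZ sums (median 36.4), without overlap (log2 2.01, SE 0.06, adjusted p = 8.90e-17). Batf, a transcription factor of activated lymphocytes, ranged over 53.2 to 107 CPM in the LZ sums (median 86.2) and 16.04 to 26.4 CPM in the DZ sums (median 21.6), also without overlap (log2 1.90, SE 0.06, adjusted p = 3.49e-16). Cd83, the light zone surface marker, ranged over 310.3 to 618 CPM in the LZ sums (median 395) and 117 to 309 CPM in the DZ sums (median 139), and its lowest LZ library was just above its highest DZ library (log2 1.34, SE 0.06, adjusted p = 3.95e-14). Bcl2a1d and Bcl2a1b, which encode BCL2-family survival proteins, differed by log2 2.25 and 1.73, although the near-identical copies of this family share reads and the split between them is uncertain. Nfkbid, an atypical nuclear inhibitor of NF-kB, differed by log2 1.65, and Cfp, which encodes properdin, by 1.56. Rilpl2 (1.70), Plac8 (1.64) and Sub1 (1.56) completed the 12 genes with the largest LZ excess. Plac8 was low outside the chimaeras, at 1.34 to 11.2 CPM in the LZ sums of Day7 and Day14 and at 103 and 153 CPM in those of the chimaeras. Of these 12 genes 12 were higher in 6 of 6 libraries, a condition of their choice, and Ccnd2, Il4i1, Batf, Myc, Cfp and Cd83 had no overlap between zones.

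**Figure D3:**
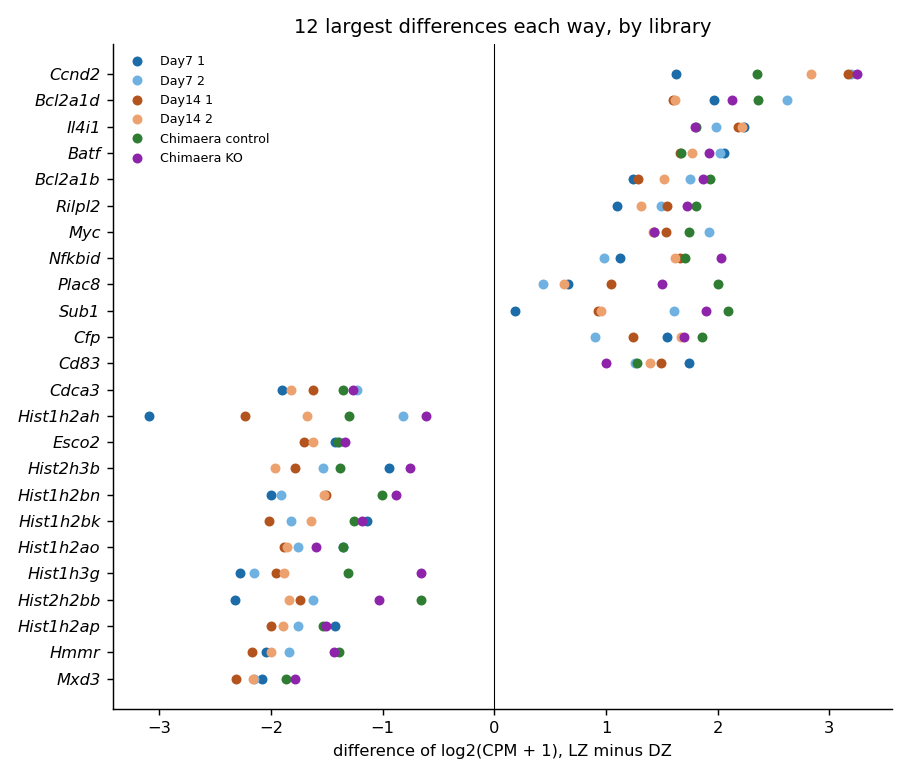
Difference of log2(CPM + 1) between LZ and DZ S phase cells (horizontal axis) in each library (coloured points) for the 12 genes with the largest difference in each direction, a choice that required the same sign in all 6 libraries. Sub1 in the first Day7 library lies nearest to 0 among the higher genes, and Hist1h2ah has the widest spread among the lower ones.

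Members of the light zone activation list were higher throughout, 12 of 12 against 18.9% of all genes, with a median log2 difference of 1.22 beside 0.00 over all tested genes. Cd40, the receptor for T cell help, differed by 1.20, Nfkbia by 1.24, Icam1 by 0.86, Cd86 by 0.53 and Cd72 by 0.64. Nfkbia, the NF-kB inhibitor that NF-kB itself induces, ranged over 391 to 497 CPM in the LZ sums (median 458) and 146 to 254 CPM in the DZ sums (median 175), without overlap. The list is near to what a zone call can use, so its direction is not independent of the call.

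Of 15 genes of the CD40 and NF-kB pathway, 14 were higher, 0 lower and 1 was not called (median 0.54). Nfkb2, the precursor of the p52 subunit and a target of NF-kB, ranged over 72.9 to 109 CPM in the LZ sums (median 76.1) and 28.1 to 57.1 CPM in the DZ sums (median 35.6), without overlap (log2 1.13, SE 0.07, adjusted p = 1.56e-11). Rel, the c-Rel subunit that GC B cells need in the light zone, ranged over 68.01 to 215 CPM in the LZ sums (median 109.7) and 52.5 to 141 CPM in the DZ sums (median 88.1), with overlap, and was higher in 6 of 6 libraries (log2 0.44, SE 0.05, adjusted p = 2.01e-07). Traf1, an adaptor of CD40, differed by 0.54, the inhibitor gene Nfkbib by 0.50 and Tnfaip3, the A20 feedback enzyme, by 0.91. Immediate early genes followed with 7 of 11 tested members higher and 0 lower (median 0.46). Junb ranged over 162 to 268 CPM in the LZ sums (median 195) and 95.95 to 130.3 CPM in the DZ sums (median 109), without overlap (log2 0.86, SE 0.06, adjusted p = 1.24e-11), and Jund stood at 0.02 and was not called.

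The promoters of the NF-kB list were searched on both strands for GGG, any 2 bases and then TTTCC, the core shared by many NF-kB sites, in the 250 bases before each RefSeq start (GRCm38.p6), for 7638 of 9703 tested genes with an entry. It was present in 5 of 13 matched promoters of the list and in 1.75% of all matched promoters. The stretches that hold it in the best-counted members are printed from the 5-prime end on the strand of the gene, with the match in capitals:
Rel, chr11:23771036-23771075, minus strand: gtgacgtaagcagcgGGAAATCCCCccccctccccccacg
Nfkb2, chr19:46304711-46304736, plus strand: ctcggggggccgaaaGGGGCTTTCCc
Traf3, chr12:111166345-111166369, plus strand: gcccaggcggcccgcGGGGATTTCC
Tnfaip3, chr10:19015411-19015437, minus strand: actggaatttccatcGGAAATCCCCct
Matches in Nfkb2, Traf3 and Tnfaip3 lie within the last 27 bases before the start, and that in Rel lies 67 to 106 bases before it with its printed flanks. The matches in Rel and Tnfaip3 read as the reverse complement, on the other strand. These matches describe letters and not binding.

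The MYC and growth list was higher in full, 19 of 19 genes (median 0.50), 18 of them in 6 of 6 libraries. Ncl, which encodes the nucleolar protein nucleolin, ranged over 855 to 1332 CPM in the LZ sums (median 1037) and 671 to 1056 CPM in the DZ sums (median 808), with overlap (log2 0.34, SE 0.04, adjusted p = 1.22e-06). Npm1, a ribosome assembly chaperone, differed by 0.23, the mitochondrial chaperones Hspd1 and Hspe1 by 0.44 and 0.41, and the spermidine synthase gene Srm by 1.03. Sterol synthesis genes were higher in 13 of 14 cases with 0 lower, and their differences were small (median 0.26, Srebf2 0.27, Cyp51 0.24, Idi1 0.25). Glycolysis genes were mixed, with 5 higher and 1 lower of 14, beside 18.9% and 19.8% of all genes. Ldha, which makes lactate, stood at 0.23 and Gapdh at -0.15. Of 22 nuclear genes of oxidative phosphorylation 13 were lower and 1 higher, with a median of -0.12 (Cox8a -0.21, Cox4i1 -0.17).

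On the DZ side stood the genes of histone supply and of the approach to mitosis. Of 65 clustered histone genes 61 were tested, and 60 of these were lower in LZ, 0 higher and 1 not called, against 19.8% of all genes (median -1.29). These genes supply the histones that package new DNA, and their transcripts mostly end without a poly(A) tail, so that droplet libraries primed on poly(A) hold only part of them. Hist1h2ap ranged over 1612 to 2350.1 CPM in the LZ sums (median 1774) and 4327 to 8019 CPM in the DZ sums (median 6253), without overlap (log2 -1.69, SE 0.06, adjusted p = 4.29e-16). Summed over the tested members, the list held 3077 to 5098 CPM in LZ and 7774 to 15659.6 CPM in DZ. Single members of the family are near-identical and their reads may be split uncertainly, so the values of Hist2h2bb (-1.69), Hist1h3g (-1.65), Hist1h2ao (-1.64) and Hist1h2bk (-1.64) are less certain than the sum. Hist2h2bb stood at -0.22 and was not called with the zones balanced on G2/M transcripts.

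All 25 G2/M genes of the list were lower in LZ S phase cells (median -1.16), and 25 of 25 were lower in 6 of 6 libraries. Top2a, the topoisomerase that untangles replicated DNA, ranged over 304 to 441 CPM in the LZ sums (median 411) and 562 to 769 CPM in the DZ sums (median 602), without overlap (log2 -0.74, SE 0.05, adjusted p = 1.05e-11). Mki67 ranged over 282 to 787 CPM in the LZ sums (median 357) and 552 to 1511 CPM in the DZ sums (median 609), with overlap, both zones being high in the Day14 libraries (log2 -0.89, SE 0.05, adjusted p = 2.83e-12). The mitotic kinases Plk1 and Aurka differed by -1.41 and -1.32, Cdc20 by -1.35, Birc5 by -1.17 and cyclin B2 (Ccnb2) by -1.19. With the zones balanced on the transcripts of this list, Top2a stood at -0.13 and Birc5 at -0.14, and neither was called. Outside the list, Hmmr, a spindle protein that is also counted among dark zone genes, ranged over 7.17 to 20.2 CPM in the LZ sums (median 11.8) and 32.8 to 56.3 CPM in the DZ sums (median 51.2) (log2 -1.79, SE 0.09, adjusted p = 4.64e-13). Esco2, the acetyltransferase that ties sister chromatids together during S phase, ranged over 58.5 to 71.7 CPM in the LZ sums (median 63.9) and 171 to 194 CPM in the DZ sums (median 181) (log2 -1.49, SE 0.05, adjusted p = 6.16e-16). Both were without overlap, and the 6 libraries agreed within 23.0 CPM on the DZ level of Esco2.

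Promoters of the G2/M list were searched in the same windows for the CCAAT box, bound by NF-Y, and for TTTGAA, the letters of the cell cycle homology region, on both strands. CCAAT was present in 19 of 22 matched promoters of the list and in 41.4% of all, TTTGAA in 10 of 22 and in 12.5% of all, and both in 9 of 22 and in 5.83% of all. The stretches between the outermost matches are shown for 3 well-counted members, with matches in capitals:
Mki67, chr7:135716457-135716582, minus strand: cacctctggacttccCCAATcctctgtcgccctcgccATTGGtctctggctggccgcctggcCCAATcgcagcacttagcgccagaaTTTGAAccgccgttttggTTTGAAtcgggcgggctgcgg
Top2a, chr11:99024192-99024431, minus strand: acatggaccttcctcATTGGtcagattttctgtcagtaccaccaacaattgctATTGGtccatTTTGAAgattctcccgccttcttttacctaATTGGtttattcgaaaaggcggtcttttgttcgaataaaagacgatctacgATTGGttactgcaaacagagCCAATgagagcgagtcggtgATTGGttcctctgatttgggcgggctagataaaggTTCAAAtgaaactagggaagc
Ccnb2, chr9:70421556-70421736, minus strand: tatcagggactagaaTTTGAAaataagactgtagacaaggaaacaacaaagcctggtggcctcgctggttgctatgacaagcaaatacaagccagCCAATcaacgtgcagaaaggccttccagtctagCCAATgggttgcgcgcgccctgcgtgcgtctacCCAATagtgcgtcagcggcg
The reverse complements ATTGG and TTCAAA are matches on the other strand. Mki67 holds 3 CCAAT and 2 TTTGAA matches, Top2a 6 and 2, and Ccnb2 3 and 1. No histone gene of the clusters had an entry among these promoters.

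The machinery that copies DNA differed less than the histones. Of 21 origin licensing and firing genes 15 were lower and 1 was higher (median -0.23). Among the MCM helicase subunits Mcm2 stood at 0.00, Mcm6 at -0.07, Mcm3 at -0.11, Mcm5 at -0.20 and Mcm7 at -0.30, the first pair not called. Mcm4, in CPM without TMM scaling, was higher in LZ in 4 of 6 libraries. Orc1, the origin recognition subunit, was the 1 member called higher (0.25, in 5 of 6 libraries). The cyclin E genes, which open S phase, were lower. Ccne2 ranged over 22.2 to 43.04 CPM in the LZ sums (median 36.01) and 31.6 to 76.6 CPM in the DZ sums (median 56.5), with overlap (log2 -0.62, SE 0.07, adjusted p = 2.23e-07), and Ccne1 over 26.6 to 53.8 CPM in the LZ sums (median 36.3) and 42.8 to 65.1 CPM in the DZ sums (median 54.8), with overlap (log2 -0.55, SE 0.08, adjusted p = 8.62e-06). Cdc6, the loader of the helicase, stood at -0.21. With the zones balanced on their G2/M transcripts these 3 were not called, with Ccne2 at -0.20, Ccne1 at -0.15 and Cdc6 at -0.10. Of 27 replication fork genes 24 were lower and 0 higher (median -0.27). Pcna, the sliding clamp, ranged over 214 to 367 CPM in the LZ sums (median 317) and 302 to 442 CPM in the DZ sums (median 395), with overlap (log2 -0.35, SE 0.04, adjusted p = 3.27e-07). Lig1, which joins Okazaki fragments, ranged over 263 to 316 CPM in the LZ sums (median 271) and 330.2 to 378 CPM in the DZ sums (median 368), without overlap (log2 -0.40, SE 0.05, adjusted p = 3.63e-07).

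Genes of nucleotide synthesis went both ways. Of 18 genes 8 were higher and 7 lower (median 0.08). The lower genes included those that make deoxynucleotides, with Rrm2 at -0.80, Rrm1 at -0.53, Tk1 at -0.62, Tyms at -0.41 and Dut at -0.41, and the purine gene Paics at -0.17. The higher genes were, for folate one-carbon units, Shmt1 (0.71), Shmt2 (0.21) and Mthfd1 (0.36), for purine synthesis, Atic (0.44), Gart (0.31) and Ppat (0.22), and for pyrimidine synthesis, Cad (0.29) and Ctps (0.23). Rrm2, the small subunit of ribonucleotide reductase, ranged over 86.9 to 412 CPM in the LZ sums (median 319) and 191 to 698 CPM in the DZ sums (median 491), with overlap, and was lower in 6 of 6 libraries (log2 -0.80, SE 0.06, adjusted p = 4.35e-11).

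Of 12 tested G1 cyclins, their kinases, inhibitors and partners, 2 were higher and 6 lower, beside 18.9% and 19.8% of all genes. Cdk6, a partner of cyclin D, was higher (0.33) together with Ccnd2. The INK4 inhibitor genes Cdkn2d and Cdkn2c were lower (-1.04 and -0.68), as were Ccnd3, E2f2 (-0.46) and Cdk2 (-0.35), while Cdk4 stood at 0.08 and was not called. Of 13 genes of the replication checkpoint and repair 8 were lower and 1 higher (median -0.40). H2afx, the histone variant that marks breaks, differed by -1.14 and Brca1 by -0.66, and the checkpoint kinase gene Chek1 stood at -0.09 and was not called. Of 10 p53 target and stress genes 3 were higher and 4 lower, beside the same shares of all genes, with Gadd45b at -0.29 and Bax at 0.19.

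The zones did not hold S phase cells of the same G2/M transcript content. The median share of a cell's UMIs from the G2/M list was 0.268% to 0.339% in the LZ sums and 0.512% to 0.579% in the DZ sums, without overlap. When each library was subsampled so that both zones had equal numbers of cells in each tertile of that share, 60 to 764 cells per sum remained. The histone median then went from -1.29 to -0.30, with 32 of 55 tested genes lower. The list used for the balancing held no histone gene, and why the histone median moved was not tested. The G2/M median went from -1.16 to -0.25 with 14 of 25 lower, as the balancing itself requires in part, and that of checkpoint and repair genes from -0.40 to -0.12. The light zone median stood at 1.23 after balancing against 1.22 before, CD40 and NF-kB at 0.49 against 0.54, and dark zone genes at -0.90 against -1.03. MYC and growth genes stood at 0.67 against 0.50, with 19 of 19 still higher, and origin licensing at -0.20 against -0.23.

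**Figure D4:**
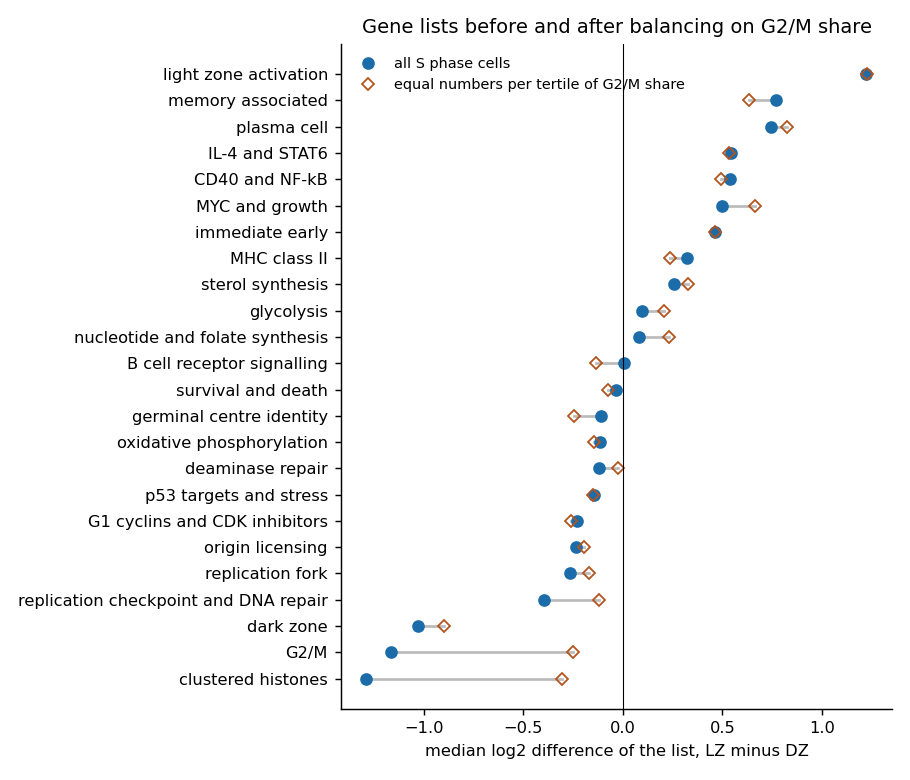
Median log2 difference between LZ and DZ (horizontal axis) of 24 gene lists in all S phase cells (filled circles) and after balancing the zones on the share of G2/M transcripts (open diamonds). The clustered histone and G2/M medians move from below -1 to -0.30 and -0.25, and the light zone median stays at 1.23.

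Genes of IL-4 signalling were higher in LZ, 9 of 9 (median 0.54). Il2rg, the common cytokine receptor chain, ranged over 78.6 to 251 CPM in the LZ sums (median 204) and 47.9 to 147 CPM in the DZ sums (median 132), with overlap (log2 0.71, SE 0.05, adjusted p = 4.35e-11), Fcer2a, which encodes CD23, differed by 1.11 and Socs1, a feedback inhibitor, by 0.66. Il4ra itself ranged over 46.6 to 96.7 CPM in the LZ sums (median 79.3) and 46.4 to 75.5 CPM in the DZ sums (median 58.7), with overlap (log2 0.31, SE 0.06, adjusted p = 0.000284). Its difference was -0.05 with zones balanced on G2/M share and was then not called, and that of Jak1 went from 0.11 to -0.03. In the chimaera control Il4ra stood at 66.9 CPM in LZ and 55.6 CPM in DZ, and in the chimaera KO at 80.9 and 61.7 CPM. With 1 library per genotype, genotype and library cannot be told apart.

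MHC class II genes were higher in 8 of 10 cases with 0 lower (median 0.32), and H2-Aa ranged over 763 to 3968 CPM in the LZ sums (median 3248) and 517 to 2873 CPM in the DZ sums (median 2555), with overlap (log2 0.43, SE 0.04, adjusted p = 2.40e-08). B cell receptor signalling genes went both ways, 5 higher and 3 lower of 16 beside 18.9% and 19.8% of all genes, with Ptpn6, an inhibitory phosphatase, at 0.34 and Blnk at -0.19. Of 14 GC identity genes 6 were lower and 2 higher, beside 19.8% and 18.9% of all genes. The higher genes were Irf8 (0.27) and Mef2c (0.10), and Bach2 stood at -0.43. The call of Mef2c was lost with DESeq2 and in the Day7 and Day14 tables alone. Bcl6, the GC master regulator, ranged over 34.5 to 114 CPM in the LZ sums (median 80.1) and 38.4 to 119 CPM in the DZ sums (median 72.2) and was not called (log2 -0.09, SE 0.07, adjusted p = 0.302).

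The dark zone list was lower in 9 of 9 cases, as a zone call can require. Cxcr4, the receptor that holds cells in the dark zone, ranged over 9.22 to 43.5 CPM in the LZ sums (median 23.5) and 19.2 to 101 CPM in the DZ sums (median 64.5), with overlap (log2 -1.19, SE 0.07, adjusted p = 6.06e-12). Of 12 genes of base excision, mismatch and break repair 6 were lower and 2 higher, beside 19.8% and 18.9% of all genes. The 2 higher ones were Ung, the uracil glycosylase (0.43), and Apex1, the endonuclease that acts after it (0.55), both in 6 of 6 libraries. The mismatch gene Msh6 stood at -0.13. The survival list had 1 higher and 2 lower of 8, close to the shares over all genes, with Bcl2 at 1.52 and Bcl2l11, which encodes the killer BIM, at -0.51. Bcl2a1d and Bcl2a1b, named above among the largest LZ excesses, were not among these 8.

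Memory-associated and plasma cell genes were higher in LZ but varied between libraries. Of 11 tested memory-associated genes 9 were higher and 0 lower (median 0.77), yet 3 were higher in 6 of 6 libraries, Cd38 (0.67), Tle3 (0.57) and Gpr183 (1.14). Cd38 differed by 0.16 at day 7, where the gate was CD38-, by 0.48 at day 14 and by 1.11 in the chimaeras. In the same order Gpr183 differed by 0.70, 0.52 and 1.36, and Tle3 by 0.65, 0.39 and 0.64. Cd38 and Gpr183 were not called in the Day7 table alone, and Gpr183 and Tle3 were not called in the Day14 table alone. Gpr183 was low, at 3.59 to 40.7 CPM in the LZ sums (median 5.32). The median of the list ran from -0.44 in the second Day7 library to 0.98 in the chimaera control, on the scale of log2(CPM + 1). Of 10 tested plasma cell genes 8 were higher and Jchain was lower (-0.19, adjusted p = 0.00238), with library medians from -0.21 to 1.22. Irf4 stood at 1.70 and Prdm1 at 1.57, each in 5 of 6 libraries.

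Markers of other cells were scarce. Of 7 T cell markers listed 6 were in all 3 tables and Lck alone was tested, at 84.7 to 166 CPM in LZ and 53.2 to 113 CPM in DZ (log2 0.62, SE 0.05, adjusted p = 2.33e-10), and Cd3e, Cd3d and Cd3g had 10, 59 and 16 UMIs over the 12 sums. Of 8 myeloid markers Cd68 and Tyrobp were tested and higher (0.50 and 0.85), with summed levels of 11.2 to 18.5 CPM in LZ and 7.03 to 12.001 CPM in DZ, and Csf1r had 16 UMIs. Tyrobp stood at 0 to 8.93 CPM in the LZ sums and differed by -0.63 (SE 0.80) at day 7, and its call was lost with DESeq2. Cd68 was not called in the Day14 or the chimaera table alone. The stromal gene Pecam1 was not called (0.12), and the globin gene Hbb-bs was called higher (0.29, higher in 5 of 6 libraries), a call that was lost with DESeq2 (0.21) and without either Day14 library (0.22 and 0.16). The better-counted globin gene Hbb-bt stood at -0.0045 and was not called. Their part in the other differences was not tested.

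The same zone contrast in G1 cells was set against that in S. The test was of the zone difference in S minus that in G1, over 10201 genes. It was above 0 for 281 genes (2.75%) and below 0 for 836 (8.2%), or 384 and 601 with median-of-ratios scaling. Without the chimaera control the counts were 275 above and 343 below. Of 12 light zone genes 1 was called above 0 and 3 below, of 15 CD40 and NF-kB genes 2 above and 0 below, and of 9 dark zone genes 0 either way, against 10.9% of all genes in either direction. Ccnd2 was not called (-0.17, SE 0.17, adjusted p = 0.606), nor was Myc (-0.14, SE 0.12, adjusted p = 0.532). Bcl2a1b (0.17) and Cfp (-0.33) were not called either. The rest of the genes that led the LZ side were called. Il4i1 (-0.60), Plac8 (-0.58), Nfkbid (-0.57), Sub1 (-0.55), Rilpl2 (-0.46) and Cd83 (-0.31) were below 0, and Batf (0.44) and Bcl2a1d (0.41) above. Mxd3, which led the DZ side, was called below 0 (-0.73), its LZ deficit being larger in S. Ccnd2 stood at 64.3 CPM in LZ (SD 27.5, n = 6) and 8.71 CPM in DZ (SD 3.23) in S, and 51.4 (SD 16.04) and 6.15 CPM (SD 3.31) in G1. These sums carry their own scaling, so CPM values differ slightly from those above.

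Histone genes were lower in LZ by more in S than in G1, with 44 of 62 tested called below 0 (median difference -0.66). Over all genes 8.2% were called below 0 and 2.75% above. Hist1h2an, the named example, stood at 103 CPM in LZ (SD 53.8, n = 6) and 314 CPM in DZ (SD 250.2) in S, and 55.3 (SD 44.7) and 72.5 CPM (SD 49.3) in G1 (-0.98, SE 0.11, adjusted p = 2.24e-07). G2/M genes went the other way, with 12 of 25 above 0 and 0 below, their LZ deficit being larger in G1. Ccnb2 stood at 51.1 CPM in LZ (SD 27.5, n = 6) and 119 CPM in DZ (SD 59.4) in S, and 49.7 (SD 26.4) and 192 CPM (SD 87.3) in G1 (0.71, SE 0.07, adjusted p = 4.74e-08). Hmgb2, a chromatin protein of dividing cells, had a mean difference of -0.68 in S and -1.24 in G1 on the log2(CPM + 1) scale (0.56, SE 0.04, adjusted p = 7.08e-11). With Ccnb2, the genes Cks1b, Cdca8, Poc1a, Cdkn3 and Gcat were the 6 named for the largest differences above 0, from 0.57 to 0.77. Of 21 origin licensing genes 10 were above 0 and 0 below, with Mcm6 at 0.22 and Mcm5 at 0.20.

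Several other lists had calls in 1 direction, below 0. Plasma cell genes were called below 0 in 10 of 11 cases, MHC class II in 8 of 10, B cell receptor signalling in 8 of 16, memory-associated genes in 7 of 12 and immediate early genes in 7 of 12, with 0 above in each. The shares over all genes were 8.2% below 0 and 2.75% above. As given above, that balance moved with the scaling and without the chimaera control. Slpi, abundant in plasma cells, stood at 309 CPM in LZ (SD 332, n = 6) and 139 CPM in DZ (SD 101) in S, and 835 (SD 696) and 119.6 CPM (SD 101) in G1 (-1.52, SE 0.19, adjusted p = 3.46e-06). H2-Aa had a mean difference of 0.40 in S and 0.81 in G1 (-0.41, SE 0.04, adjusted p = 2.49e-08). Ccng2, an atypical cyclin of cells that leave the cycle, went from near equal levels in G1 to a lower LZ level in S, with 13.7 CPM in LZ (SD 1.98, n = 6) and 28.1 CPM in DZ (SD 5.39) in S, and 27.03 (SD 4.06) and 24.03 CPM (SD 2.65) in G1 (-1.15, SE 0.12, adjusted p = 8.58e-08). Prg2 (-2.59), Jchain (-1.19) and Ass1 (-1.02) completed the 6 genes named for the largest differences below 0.

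**Figure D5:**
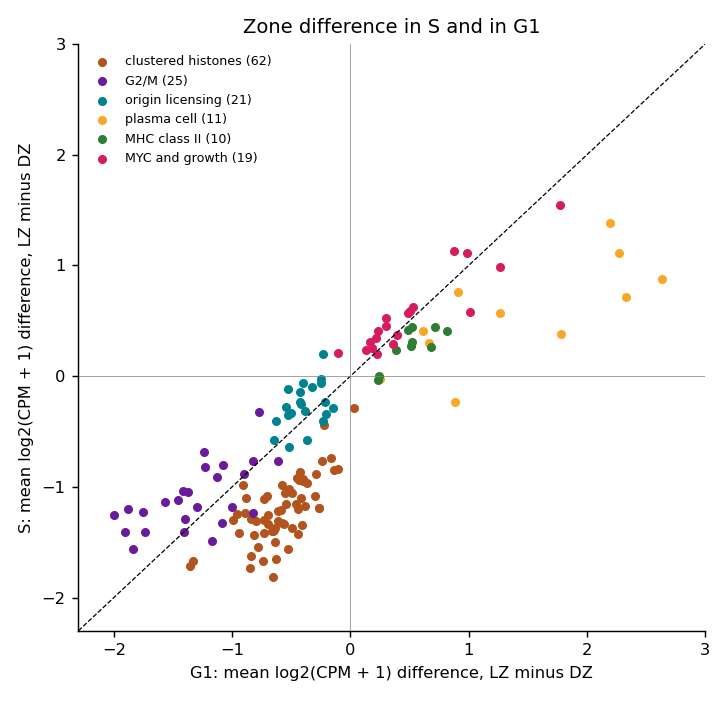
Mean difference of log2(CPM + 1) between LZ and DZ over 6 libraries in S phase cells (vertical axis) and in G1 cells (horizontal axis) for the members of 6 lists, with the dashed line where both are equal. Histone genes lie mostly below the line, and plasma cell genes lie below it on the right, with Slpi at 0.72 in S and 2.33 in G1.

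Between the days, the zone difference in S phase was called different for 18 of 9703 genes (0.186%), 5 above (0.0515%) and 13 below 0 (0.134%) for day 14 minus day 7. The count was 0 without either Day14 library, 271 without the first Day7 library, 61 without the second and 0 among genes of at least 20 CPM tested alone, so it rests on single libraries and on the filter. The gates also differ between the days, as do the median UMIs per S phase cell (18286.5 to 22072 at day 7, 3083 to 4350 at day 14). The median mitochondrial share of a cell was 2.50% to 2.61% in the Day7 sums and 7.49% to 8.63% in the Day14 sums. Gate, depth, mitochondrial share and day cannot be told apart. Histone genes were among those with a larger LZ deficit at day 14. Hist1h1e, a linker histone, differed between zones by -0.58 (SE 0.10) at day 7 and -1.44 (SE 0.09) at day 14 (difference -0.86, SE 0.13, adjusted p = 0.00548). Hist1h2an, Hist1h1d, Hist1h1a and Hist1h2ae had differences of -0.65, -0.64, -0.63 and -0.51. Set, a histone chaperone, had a difference of -0.38, from an LZ excess of 0.37 at day 7 to -0.0039 at day 14. Without the second Day7 library the value for Hist1h2an was -0.36, and it was not called.

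Klf2, a quiescence and trafficking factor, differed by -1.44 (SE 0.32) at day 7 and 0.76 (SE 0.22) at day 14 (difference 2.19, SE 0.38, adjusted p = 0.0127). In LZ cells Klf2 stood at 6.58 and 3.34 CPM in the Day7 libraries, 20.99 and 11.8 CPM in the Day14 libraries, 106 CPM in the chimaera control and 124 CPM in the chimaera KO. In DZ cells it stood at 5.16 and 13.04 CPM in the Day7 libraries, 12.7 and 6.76 CPM in the Day14 libraries, 53.2 CPM in the chimaera control and 51.8 CPM in the chimaera KO. Klf2 was lower in LZ in the second Day7 library and higher in the other 5, and without that library the difference between days was 0.40 and not called (edgeR adjusted p = 0.923). Hmces, which shields abasic sites in replicating DNA, was lower in LZ in 6 of 6 libraries and less so at day 14, by -1.13 (SE 0.06) at day 7 and -0.73 (SE 0.06) at day 14. Vim and Cd81 had differences of 0.59 and 0.47. Ccnd2 differed between zones by 3.02 (SE 0.19) at day 7 and 3.11 (SE 0.18) at day 14, and the difference between days was not called (0.09, SE 0.30, adjusted p = 0.973). The same held for Myc, at 1.79 (SE 0.10) at day 7 and 1.52 (SE 0.13) at day 14 (-0.27, SE 0.16, adjusted p = 0.754), and for Mxd3, at -2.26 (SE 0.15) at day 7 and -2.37 (SE 0.16) at day 14 (-0.11, SE 0.27, adjusted p = 0.965).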

How the data were processed

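The deposited files give UMI counts as whole numbers for each gene in each cell, not normalised by the authors, with a phase and a zone call per cell. Cell Ranger, Seurat and mm10 are named in the submitters' processing notes, and versions and settings are not given in the sources used here. All deposited cells were kept. Scrublet (scanpy 1.11.5) called at most 0.198% of a library, too few to have worked, so doublets were handled in an alternative without the 5% of cells with the highest scores.

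Counts of the 14548 symbols in all 3 tables were summed per library and zone. Zones were compared with a library term (each library holds both zones, which pairs them) in edgeR 4.0.16 under R 4.3.3 (TMM scaling, the filterByExpr filter, quasi-likelihood F tests), with SE from the log2 difference and its F statistic. S was set against G1 with library by phase and library by zone terms. CPM are scaled by TMM library sizes. Simulated counts held 200 changed genes, all with a mean of at least 20 CPM. Of those changed by log2 1, 100% were recovered for LZ against DZ, with 13 false calls among 9622 genes. Recovery of genes under 20 CPM was not simulated. DESeq2 1.42.0 and limma 3.58.1 served as alternatives, and other alternatives thinned cells to 1000 UMIs.

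Named genes were the 12 largest differences in each direction among called genes of at least 20 CPM with 1 sign in 6 libraries (6 each way for the other comparisons, without the sign condition), without immunoglobulin, mitochondrial, ribosomal and predicted symbols. To these came 16 genes of zone and cycle and the 4 best-counted tested members of each list. A few genes that these rules name are not reported here. Other genes named from a list were chosen after their values were seen. Members and lists were chosen with earlier results of these data known. Coordinates are from GENCODE vM21 (GRCm38, the mm10 assembly). Cluster numbers and receptor barcode names were not used.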

Additional observations from a re-analysis of the deposited data

Results flagged for a closer look

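For 9 of 142 named genes, 1 library stood apart from the other 5 in the difference of log2(CPM + 1) between LZ and DZ, where chance alone gives about 1 in 20. Klf2 stood at -1.69 in the second Day7 library, against 0.30 to 1.25 in the others. In the first Day7 library Rfc1 stood at -0.24 (others -0.55 to -0.44), Rfc2 at 0.11 (-0.19 to -0.11), Lig1 at -0.065 (-0.49 to -0.38) and Ung at 0.17 (0.40 to 0.53). In the second Day7 library Ldha stood at 0.43 (0.15 to 0.22) and Pkm at 0.25 (-0.11 to 0.02). Zfp36 stood at -0.12 in the second Day14 library (0.16 to 0.31), and Hbb-bs at -0.61 in the chimaera KO (0.14 to 0.54).

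For 11 named genes the zone difference itself differed between the days (edgeR, day 14 minus day 7, log2). It was higher at day 14 for Klf2 (2.19), Vim (0.59), Cd81 (0.47) and Hmces (0.40). It was lower for Hist1h1e (-0.86), Hist1h2an (-0.65), Hist1h1d (-0.64), Hist1h1a (-0.63), Hist1h2ae (-0.51), Set (-0.38) and Hist1h2ap (-0.35). As given above, these calls rest on single libraries and on the filter, and gate, depth, mitochondrial share and day cannot be told apart. After thinning cells to 1000 UMIs 0 genes were called between the days, and 0 among genes of at least 20 CPM tested alone.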

How the results depend on the processing

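For LZ against DZ in S phase, 3754 genes were called, and leaving out 1 library gave 3252 to 3618. Fewer were called with cells thinned to 1000 UMIs (1134, of 6526 tested) and in the Day7 table alone (1576). The other settings gave 2632 to 4025. Without the library term, and so without the pairing of zones (no replicate block), 263 were called. For S against G1, 1117 genes were called, 618 to 1018 without 1 library (618 without the chimaera control), 214 after thinning and 1 without the replicate block. For day 14 against day 7, the 18 calls became 133 with no filter on low counts, 141 with zones balanced on G2/M share, 0 to 271 without 1 library, 0 after thinning and 0 at 20 CPM or more. In edgeR the settings with 0 calls had 383 to 532 genes at an unadjusted p under 0.05, against 722 in the full comparison. The share of cells in S differed by -10.9 to -8.65 points without 1 library, where 5 pairs cannot go below an exact permutation p of 0.0625, and by -2.47 in deeper cells.

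Signs turned for 14 values of named genes that were called in the main setting or in the alternative. In the chimaera table alone Hbb-bs stood at -0.42, Mef2b at -0.16 and Vim at 0.28, and in the Day14 table alone Cd81 at 0.21 and Ebf1 at 0.073. In the Day7 table alone Ass1 stood at -0.045, Atp5b at 0.0043, Klf2 at -1.35 and Mzb1 at -0.24. With zones balanced on G2/M share Cd79a stood at -0.19, Hbb-bs at -0.055, Il4ra at -0.054 and Jak1 at -0.035. The day difference of Hist1h2an was 0.38 after thinning. The cause was not tested. Of the other values of named genes under alternatives, 2614 kept direction and side of the threshold, 323 lost their call and 25 gained one. A further 69 changed sign with no call in the main setting or the alternative. The first Day7 library had the fewest cells, with 78 LZ cells.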
